A study of Mus musculus with 4 samples.

Results

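The genes described here are 10 main heterogeneous nuclear ribonucleoproteins (hnRNPs), namely Hnrnpa1, Hnrnpa2b1, Hnrnpab, Hnrnpc, Hnrnpd, Hnrnph1, Hnrnpk, Hnrnpl, Hnrnpm and Hnrnpu. They were selected by name, and all 10 are among the 23038 genes of the deposited tables. Their alternative splicing events were found by gene identifier among the 38240 events that were quantified. RNA of E14.5 mouse cortex was sequenced from 2 control embryos (Qk fl/fl, given as wild type in the labels) and 2 Qk cKO embryos (Nestin-Cre, Qk fl/fl). Both groups carry the floxed Qk alleles, and Cre is driven by the Nestin promoter in neural progenitors. Cells in which that promoter is not active keep Qk. The question was whether transcript levels or isoforms of the main hnRNPs differ in cortex that lacks the RNA-binding protein Qki.

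hnRNPs bind nascent transcripts in the nucleus, many of them through RNA recognition motifs, quasi-RRMs or KH domains. They take part in splicing, mRNA export, stability and translation. They are among the most abundant nuclear proteins, and their genes are themselves rich in alternative exons that change the protein or create transcripts open to nonsense-mediated decay (NMD). Several members limit their own amount in this way. Qki is a KH domain protein that binds ACUAAC elements and regulates exons in neural stem cells.

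The tables held between 37942046 and 42994832 tags per sample. A tag is the unit counted by Quantas, and it is an estimated count that need not be whole. Cre removes exon 2 of Qk, and the junction of exons 2 and 3 had 635 and 565 tags in the controls but 63 and 68 in Qk cKO, while that of exons 3 and 4 had 574 and 439 against 898 and 830. The cortical identity genes Emx1, Emx2 and Lhx2 were present in every sample. Emx1 was at 21.2 to 26.9, Emx2 at 13.3 to 15.4 and Lhx2 at 48.4 to 57.3 RPKM, a level scaled to exon length and library size. Some cell type markers moved with the groups at the threshold used for levels throughout (p below 0.01 and FDR below 0.1, edgeR quasi-likelihood test), which 0.584% of all genes tested passed. Of 8 hypothalamic and diencephalic markers, all 8 had lower estimates in Qk cKO and 6 passed the threshold, and their summed level was 11.4 and 18.4 RPKM in control and 8.60 and 7.84 RPKM in Qk cKO. Of 8 radial glia markers 5 had lower and 3 (Pax6, Hes1, Nes) higher estimates, and 2 (Fabp7, Slc1a3) passed the threshold, both lower. Their sum was 1633 and 1512 RPKM in control against 1329 and 1267 RPKM in Qk cKO, of which Fabp7 alone gave 989 and 901 RPKM against 703 and 667 RPKM. All 5 erythroid markers measured had higher estimates and 1 (Hbb-bs) passed, with sums of 550 and 596 RPKM in control and 819 and 621 RPKM in Qk cKO. The part of these differences in the hnRNP values was not tested, and in bulk tissue fewer cells of a type and less RNA per cell cannot be told apart.

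All 10 transcripts were abundant, with mean levels between the 94.4th and the 99.8th percentile of the genes tested. Together the 10 genes took 0.835% to 0.879% of all tags. Hnrnpa2b1, whose products hnRNP A2 and B1 package nascent RNA and also sort RNAs for transport, was the highest at 614.5 to 650.5 RPKM over the 4 samples. Below it were Hnrnph1, a binder of G-rich elements (368.6 to 411.9 RPKM), Hnrnpab, an A/B-type protein (359 to 391.6 RPKM), and Hnrnpu, the scaffold attachment factor (335 to 372 RPKM, chr1:178321108-178337797, minus strand). The ranges of these neighbours overlapped. Hnrnpu was below Hnrnph1 and Hnrnpab in every sample, while the order of Hnrnph1 and Hnrnpab changed between samples. The ranges of all lower neighbours were separate. Hnrnpk, a KH domain protein that binds C-rich RNA, stood at 273 to 284 RPKM. Hnrnpc, which binds uridine tracts, had 180 to 198 RPKM, and Hnrnpl, a binder of CA repeats, had 157 to 169.7 RPKM. Hnrnpm was found at 125 to 130 RPKM, Hnrnpd (AUF1), a regulator of AU-rich mRNAs, at 72.4 to 81.4 RPKM, and Hnrnpa1, a repressor of exon inclusion, at 60.2 to 71.4 RPKM.

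**Figure D1:**
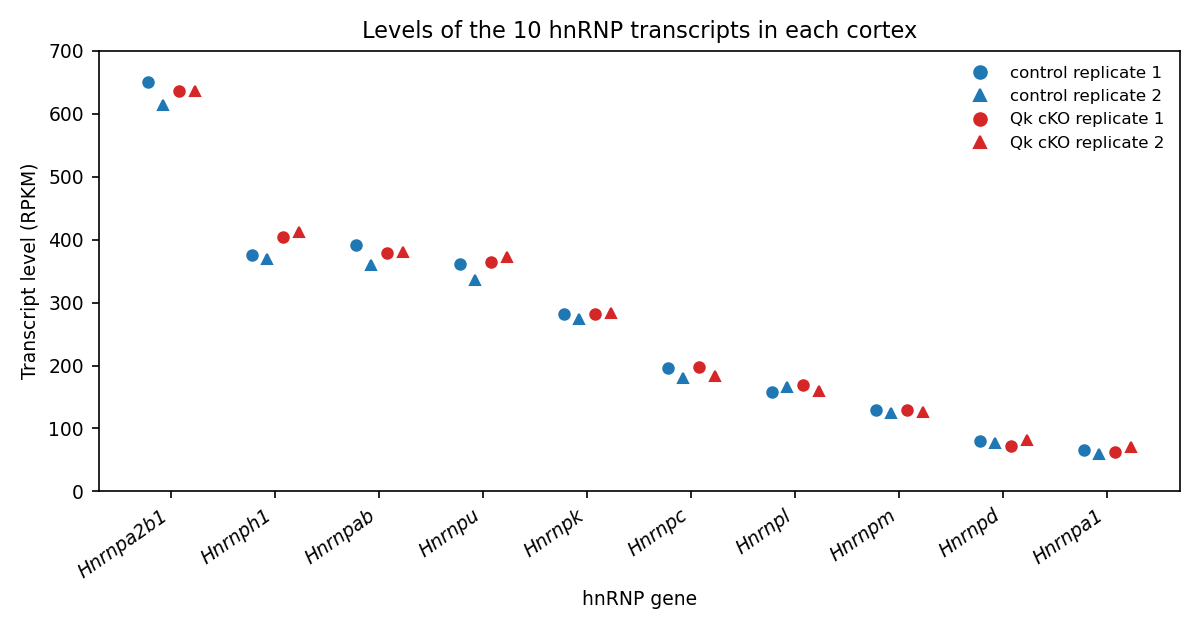
Transcript level (RPKM, y axis from 0) of each of the 10 hnRNP genes (x axis, in order of mean level) in every sample. Blue is control, red is Qk cKO, circles are replicate 1 and triangles replicate 2. Hnrnpa2b1 lies highest at 614.5 to 650.5 RPKM and Hnrnpa1 lowest at 60.2 to 71.4 RPKM, and the groups overlap in 8 of the 10 genes.

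The rank of some members depends on how reads were assigned. For Hnrnpa1, 58.5% of the longest coding transcript has a copy with at least 97% identity over at least 150 nt in transcripts of other genes, and 7 other genes carry such a copy. The share was 46.4% for Hnrnpk, 31.8% for Hnrnpc, 30.6% for Hnrnpab and 29.7% for Hnrnpm, below 10% for Hnrnph1 and Hnrnpd, and 0% for Hnrnpa2b1, Hnrnpl and Hnrnpu. Levels of the members with copies are therefore uncertain, since reads could be split between genes or lost. The exon length used for RPKM was 2684 bases for Hnrnpu and its longest annotated coding transcript has 7640 bases.

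Steady-state levels of none of the 10 members changed at this threshold (edgeR quasi-likelihood test over 18834 genes), where 0.584% of all genes tested passed. None reached an unadjusted p below 0.05 by this test or by edgeR's exact test. DESeq2 called 0 members as well, with 1 (Hnrnph1) at an unadjusted p below 0.05. The log2 fold change of Qk cKO over control was above 0 in 9 members and below 0 in 1, with a median of 0.04 and a range from -0.01 to 0.15. The median over all genes tested was -0.0025.

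Hnrnph1 had the largest difference. Its level was 375 and 369 RPKM in control replicates 1 and 2 and 403 and 412 RPKM in Qk cKO replicates 1 and 2. Both Qk cKO samples lay above both controls, and the log2 fold change was 0.15 ± 0.08 (SE) with FDR = 0.636 (edgeR). Its 95% interval ran from a decrease of 1.02% to an increase of 23.7%, the widest reach above 0 of the 10 members.

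Hnrnpu was measured at 361 and 335 RPKM in control and at 365 and 372 RPKM in Qk cKO. Here too the groups did not overlap, though the gap between the nearest samples was small beside the spread of the controls (log2 fold change 0.09 ± 0.08 SE, FDR = 0.826, edgeR). Groups that do not overlap were thus found for 2 of the 10 members, and for 36.9% of all genes tested.

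For Hnrnpa1 the values were 65.1 and 60.2 RPKM in control and 62.3 and 71.4 RPKM in Qk cKO. The highest value was in Qk cKO replicate 2, and the groups overlapped (log2 fold change 0.11 ± 0.06 SE, FDR = 0.704, edgeR). Hnrnpa2b1 was at 650.5 and 614.5 RPKM in control and at 636 and 637 RPKM in Qk cKO, so that both Qk cKO values fell between the controls. The same held for Hnrnpab, with 392 and 359 RPKM in control and 378 and 380.1 RPKM in Qk cKO. Hnrnpc (196 and 180.1 RPKM in control, 198 and 184 RPKM in Qk cKO) and Hnrnpk (282 and 273 RPKM in control, 282 and 284 RPKM in Qk cKO) overlapped between groups. So did Hnrnpl, with 157 and 166 RPKM in control and 169.7 and 160.1 RPKM in Qk cKO. Hnrnpm had 129 and 125 RPKM in control and 130 and 126 RPKM in Qk cKO. Hnrnpd, the only member with a log2 fold change below 0 (-0.01 ± 0.08 SE), had 79.5 and 76.7 RPKM in control and 72.4 and 81.4 RPKM in Qk cKO. Over the 8 members other than Hnrnph1 and Hnrnpu, the 95% intervals of the change lay between a decrease of 11.4% (Hnrnpd) and an increase of 17.9% (Hnrnpa1).

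**Figure D2:**
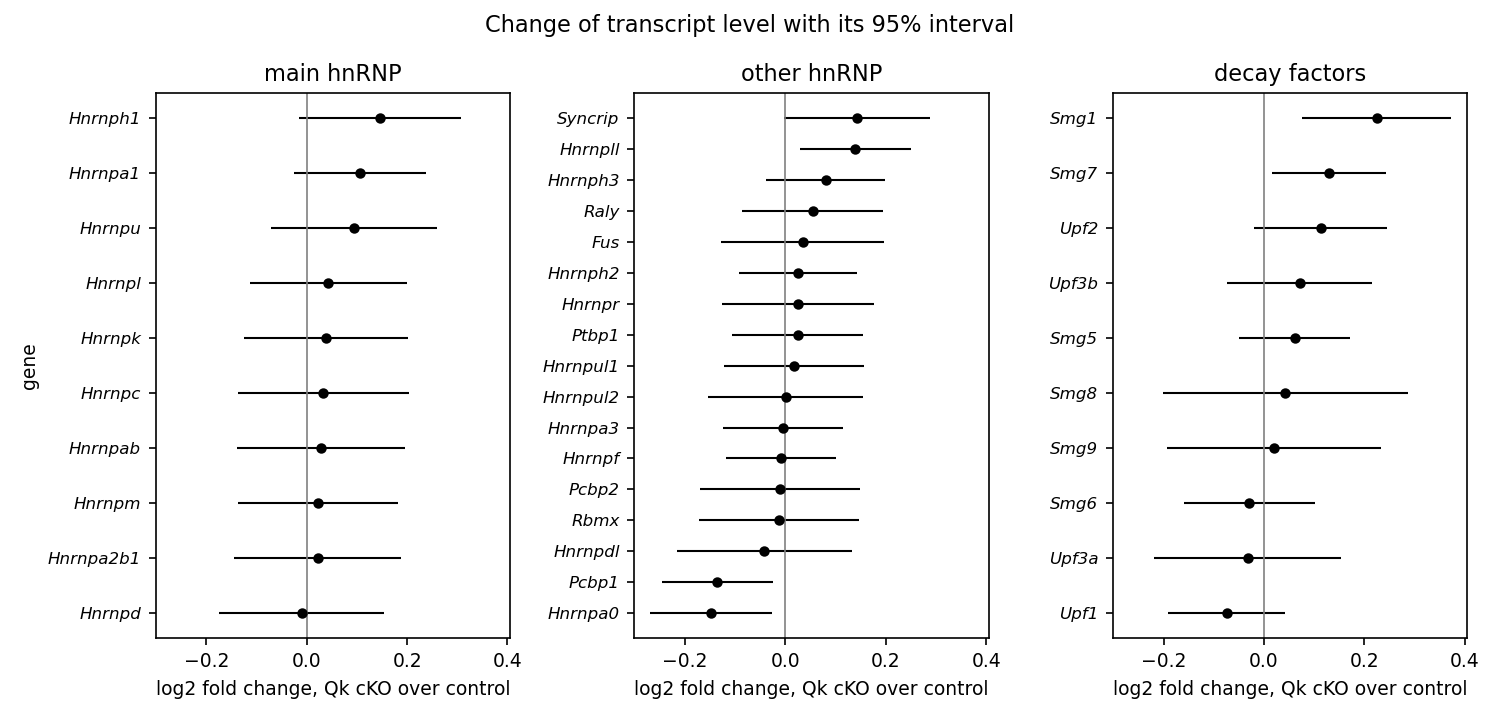
Log2 fold change of Qk cKO over control (x axis) for the 10 main hnRNP genes, 17 other hnRNP genes and 10 decay factors (y axis); points are estimates of the edgeR quasi-likelihood fit and lines their 95% intervals. In the main hnRNP panel every interval crosses 0, from Hnrnpd at -0.01 to Hnrnph1 at 0.15.

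In the rest of the family, none of 17 other hnRNP genes passed the threshold either. By the edgeR quasi-likelihood test 3 were at an unadjusted p below 0.05, as were 1650 of the 18834 genes tested. DESeq2 and edgeR's exact test each gave 1 such gene. Groups did not overlap in 5 of the 17, and in 36.9% of all genes tested. Log2 fold changes were above 0 in 10 and below 0 in 7, with a median of 0.02. The smallest p among those with higher levels was that of Hnrnpll (Hnrpll in the files), a paralog of Hnrnpl, at 33.1 and 32.1 RPKM in control and 35.1 and 36.0 RPKM in Qk cKO (log2 fold change 0.14 ± 0.05 SE, FDR = 0.401, edgeR). Pcbp1, a poly(C)-binding protein, had the smallest p among those with lower levels, at 83.3 and 82.1 RPKM in control and 75.7 and 73.5 RPKM in Qk cKO (log2 fold change -0.14 ± 0.05 SE, FDR = 0.414, edgeR).

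NMD removes transcripts with premature stop codons, which many hnRNP genes produce. Groups did not overlap in 5 of 10 NMD factors, and in 36.9% of all genes tested. By the edgeR quasi-likelihood test 2 were at an unadjusted p below 0.05, as were 1650 of the 18834 genes tested. By edgeR's exact test 1 was. None of the 10 passed the threshold. Smg1, the kinase that phosphorylates Upf1, came nearest, with 13.6 and 14.7 RPKM in control and 15.8 and 16.9 RPKM in Qk cKO (log2 fold change 0.22 ± 0.07 SE, FDR = 0.271, edgeR). Both Qk cKO samples lay above both controls. DESeq2 called Smg1 (FDR = 0.097), as the only NMD factor, and called 81 genes in the whole data. Upf1, the central helicase, had 26.6 and 27.0 RPKM in control and 24.1 and 26.3 RPKM in Qk cKO (log2 fold change -0.07 ± 0.06 SE, FDR = 0.785, edgeR).

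For splicing, the tables hold 118 events of 9 members and none of Hnrnpu. Of these, 96 had a coverage of at least 20 junction tags. Fisher's exact test on tags summed over the 2 samples of a group called 31 of them (p below 0.01 and FDR below 0.1), while 7.50% of all 11500 events tested were called. That count is inflated by repetition. In 22 of the 31 called events the tags are identical, because the same choice of splice sites in Hnrnpk is listed under 22 event names. With each set of identical tags counted as 1 event, 9 of 57 member events were called, against 6.58% of 10674 events in the whole data. By gene, 18 distinct events were tested in Hnrnph1, 10 in Hnrnpk, 9 in Hnrnpc, 5 each in Hnrnpa2b1 and Hnrnpm, 3 each in Hnrnpa1 and Hnrnpd and 2 each in Hnrnpab and Hnrnpl. Coverage of the members was higher than usual, with a median of 474.5 tags per event against 62.4. At a coverage of at least 500 tags, 6 of 28 member events and 81 of 499 events in the whole data (16.2%) were called.

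Fisher's exact test treats every tag as independent. The edgeR interaction test, which estimates the spread between embryos, asks whether the ratio of isoforms depends on genotype. By it 0 of the 57 member events were called, and the lowest FDR was 0.461. The same test called 0.600% of all distinct events. Every difference in splicing given below is thus one of summed tags, and none passed on isoform tags once the spread between embryos was estimated. The edgeR interaction test used isoform tags, while inclusion values come from junction tags. The inclusion ranges of the groups did not overlap in the 9 called events, though they met to 4 decimals in 1 of them. The same was found in 22 of the 57 member events and in 37.3% of all distinct events.

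**Figure D3:**
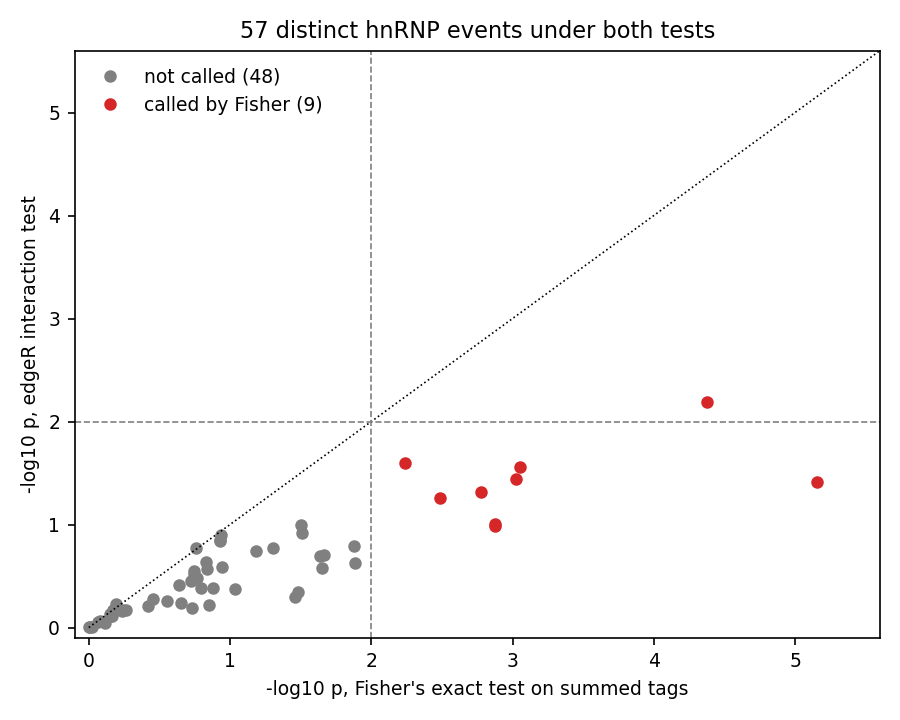
Minus log10 of the p-value of each of the 57 distinct member events in Fisher's exact test on summed tags (x axis) and in the edgeR interaction test (y axis); red points are the 9 events called by Fisher's exact test, grey points the other 48, dashed lines mark p = 0.01 and the dotted line equal values. All 9 red points lie below the dotted line.

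Changes were small. The median absolute difference in inclusion between the groups (ΔI, here the inclusion level of control minus that of Qk cKO, where the inclusion level is the share of transcripts that use the alternative exon, the longer form of an exon or the intron, on a scale from 0 to 1) was 0.0050 over the 57 member events and 0.0299 over the 9 called. Over all distinct events tested it was 0.0258, and 0.0965 over those called. A single member event reached 0.1, compared with 11.7% of all distinct events. These medians and shares were not matched for coverage, which had a median of 474.5 tags in the members and 62.4 in all distinct events. The part of coverage in the smaller ΔI of the members was not tested. Inclusion was lower in Qk cKO in 5 of the called events and higher in 4.

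Hnrnpk held 4 of the 9 called events. The one with the lowest p was the 3′ splice site of the last exon (exon 18 of 18 in Hnrnpk-202), where sites 60 nt apart (mm10, chr13:58392417-58392476, minus strand) are both used. Their choice replaces the last codons of the protein. In GENCODE M21, 4 coding transcripts of the longer exon and 3 of the shorter end as follows, with the bases after the shared stretch in capitals, the stop codon included.
longer exon, chr13:58392443-58392476: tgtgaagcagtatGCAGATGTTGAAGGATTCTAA
shorter exon, chr13:58392386-58392416: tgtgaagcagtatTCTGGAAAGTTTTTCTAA
The 13 shared bases are read at a different position in each form. After them the longer form adds 6 codons of its own and the shorter form 5. In 1 further coding transcript of the shorter exon (Hnrnpk-213) a stop codon follows after 2 coding bases. Inclusion of the longer form was 0.535 (Wilson 95% interval 0.512 to 0.558) and 0.529 (0.503 to 0.555) in control replicates 1 and 2 and 0.496 (0.473 to 0.520) and 0.458 (0.435 to 0.481) in Qk cKO replicates 1 and 2. Control means were 0.532 ± 0.0040 (SD, n = 2) and Qk cKO means 0.477 ± 0.0274 (SD, n = 2), so the spread lay within Qk cKO. ΔI was 0.0555, with FDR = 0.000632 by Fisher's exact test and FDR = 0.632 by the edgeR interaction test. Each FDR given here was adjusted over all event names, repeated ones included. With 1 event per set of identical tags these were 0.00199 and 0.85. Fisher's exact test then gave FDR = 0.0745 for the called 3′ splice sites of Hnrnpc and 0.0629 for that of Hnrnpab (below). Without Qk cKO replicate 2, the sample with the lowest inclusion, ΔI was 0.0361 and the event was not called.

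The 72-nt coding exon of Hnrnpk (chr13:58396188-58396259, exon 7 of 16 in Hnrnpk-201) keeps the reading frame. It is shown because both its inclusion and its skipping give annotated coding transcripts (10 and 5, respectively).
Hnrnpk 72-nt exon: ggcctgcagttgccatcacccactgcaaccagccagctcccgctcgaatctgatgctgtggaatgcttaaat
It was included at 0.153 and 0.160 in control and at 0.125 and 0.128 in Qk cKO. The samples within each group were close, and both Qk cKO values were the lower. ΔI was 0.0299 (FDR = 0.0482 by Fisher's exact test, FDR = 0.566 by the edgeR interaction test). It was not called without control replicate 2 (ΔI 0.0266) or without Qk cKO replicate 2 (ΔI 0.0311). One other gene has a copy of this exon, so tags within it are uncertain.

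A 54-nt noncoding exon near the 5′ end of Hnrnpk (chr13:58402064-58402117, exon 3 of 18 in Hnrnpk-202) was rarely used. Its inclusion was 0.0456 and 0.0396 in control and 0.0322 and 0.0328 in Qk cKO (ΔI 0.0102, FDR = 0.0203 by Fisher's exact test, FDR = 0.479 by the edgeR interaction test). It was not called without control replicate 1 (ΔI 0.0070) or without Qk cKO replicate 1 (ΔI 0.0099). An intron of 326 nt (chr13:58393366-58393691) was retained at 0.0025 and 0.0046 in control and at 0.0070 and 0.0091 in Qk cKO. It rested on 11.5 and 19.3 retained-form junction tags in control and 33.9 and 49.6 in Qk cKO. This was the member event with the lowest p in the edgeR interaction test (p = 0.00646, FDR = 0.683), and Fisher's exact test gave FDR = 0.00503. It was not called without control replicate 1, the sample with the lowest retention (ΔI -0.0035). Retention did not exceed 0.0091 in any sample.

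Hnrnpa2b1 held the event with the largest ΔI. It is a 226-nt noncoding exon in the 3′ part of the gene (chr6:51462339-51462564, minus strand), which 4 annotated transcripts skip, 2 of them classed as NMD targets. The 1 annotated transcript that includes it is classed as a retained intron, and there it is exon 1 of 2. Inclusion was 0.387 (Wilson 95% interval 0.298 to 0.497) and 0.429 (0.327 to 0.540) in control and 0.205 (0.134 to 0.300) and 0.263 (0.187 to 0.355) in Qk cKO. Both controls lay above both Qk cKO samples, on fewer tags than most member events (coverage 227). ΔI was 0.170 with FDR = 0.0713 by Fisher's exact test and FDR = 0.461 by the edgeR interaction test. It was called in none of the 4 fits without a sample, with ΔI between 0.144 and 0.202. Its inclusion junctions carried 36 to 69 tags per sample and its skipping junction 45 to 75.7, where the gene had 95240 to 111667 tags. Both tests used isoform tags, which also count tags inside the exon. Those of the including form were 1261 and 913 in control and 1033 and 1147 in Qk cKO. ΔI came from junction tags alone, on which Fisher's exact test gave FDR = 0.000851. The edgeR interaction test was not run on junction tags.

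The protein isoforms of Hnrnpa2b1 showed no such difference. The 36-nt exon 2, whose inclusion makes hnRNP B1 instead of A2, and the 120-nt exon of the glycine-rich region were added for the isoforms they make. Each TATGG is in capitals.
Hnrnpa2b1 36-nt exon, chr6:51467391-51467426: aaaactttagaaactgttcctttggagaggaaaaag
Hnrnpa2b1 120-nt exon, chr6:51464428-51464547: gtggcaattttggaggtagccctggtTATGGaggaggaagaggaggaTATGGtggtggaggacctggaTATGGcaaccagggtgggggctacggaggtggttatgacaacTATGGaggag
The 36-nt exon was included at 0.0781 and 0.0807 in control and at 0.0776 and 0.0839 in Qk cKO (coverage 2759, FDR = 0.857, Fisher's exact test). A copy of this exon is present in 1 other gene, so tags within it are uncertain. The 120-nt exon was included at 0.890 and 0.894 in control and at 0.894 and 0.879 in Qk cKO (coverage 1941, FDR = 0.457, Fisher's exact test). Inclusion of both exons overlapped between the groups.

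In Hnrnpa1 a 159-nt coding exon of the glycine-rich region was called. Exons of the C-terminal region of the related Hnrnpab (added for its isoforms) and Hnrnpd are shown, since they are the most covered events of those genes, again with TATGG in capitals.
Hnrnpab 141-nt exon, chr11:51601750-51601890: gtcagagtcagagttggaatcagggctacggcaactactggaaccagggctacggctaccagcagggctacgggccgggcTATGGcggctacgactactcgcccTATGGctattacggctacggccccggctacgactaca
Hnrnpd 147-nt exon, chr5:99963731-99963877: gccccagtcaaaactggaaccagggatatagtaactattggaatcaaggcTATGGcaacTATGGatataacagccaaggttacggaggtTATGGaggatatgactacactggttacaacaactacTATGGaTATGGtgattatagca
Both lengths keep the reading frame. TATGG occurs 4 times in the 120-nt exon of Hnrnpa2b1, 5 times in that of Hnrnpd and 2 times in that of Hnrnpab, and on the opposite strand in none. Of annotated internal exons of the same lengths, 11.2%, 10.7% and 10.5%, respectively, hold it at least once.

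Inclusion of the Hnrnpa1 exon was 0.863 (Wilson 95% interval 0.841 to 0.884) and 0.836 (0.812 to 0.860) in control and 0.890 (0.870 to 0.906) and 0.878 (0.858 to 0.895) in Qk cKO. Both Qk cKO samples were above both controls. ΔI was -0.0343 with FDR = 0.0316 by Fisher's exact test and FDR = 0.564 by the edgeR interaction test. The call was lost without control replicate 2 (ΔI -0.0209) and without Qk cKO replicate 1 (ΔI -0.0281). No other gene has a copy of the exon, while 1 has a copy of the 100 bases around the junction that skips it, so tags of the skipping form are uncertain.

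The Hnrnpd exon, the member event of Hnrnpd with the highest coverage (2663), was included at 0.578 and 0.547 in control and at 0.591 and 0.572 in Qk cKO. The groups overlapped (ΔI -0.0177, FDR = 0.649, Fisher's exact test). The 57-nt exon 2 of Hnrnpd (chr5:99976534-99976590), which with the 147-nt exon sets the AUF1 protein isoforms and was named for that reason, was included at 0.723 and 0.715 in control and 0.716 and 0.733 in Qk cKO (FDR = 0.885, Fisher's exact test). For the Hnrnpab exon, with the highest coverage of all member events (9130), inclusion was 0.307 and 0.283 in control and 0.300 and 0.292 in Qk cKO (FDR = 0.473, Fisher's exact test). Both Qk cKO values lay between the controls. The called event of Hnrnpab was of another kind, a 3′ splice site 129 nt away that was almost never used. It had 0.774 and 2.64 tags in the controls and 5.41 and 13.5 in the Qk cKO embryos, and inclusion of the longer form was at least 0.996 in all samples (coverage 22.3, FDR = 0.0448 by Fisher's exact test, FDR = 0.632 by the edgeR interaction test). It was not called without control replicate 1 (FDR = 0.522, Fisher's exact test), and its coverage was too low for a test without any of the other 3 samples. Its sites were not placed in the annotation.

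Hnrnpc had 2 called events, which share the same distal tags. At the start of an exon near the end of the coding region (exon 8 of 9 in Hnrnpc-201) are 3 alternative 3′ splice sites. The 24 bases between the outermost sites (chr14:52075413-52075436, minus strand) show a tandem of AG dinucleotides, with the 3 bases between the last sites in capitals.
Hnrnpc 24-nt stretch: acttgtccttctcatccccagTAG
Use of the middle site in place of the last, which keeps the 3 bases, was 0.745 and 0.667 in control and 0.745 and 0.790 in Qk cKO. Control replicate 1 and Qk cKO replicate 1 were equal at 0.7453, and the other two samples stood apart in opposite directions (ΔI -0.0541, FDR = 0.0545 by Fisher's exact test, FDR = 0.707 by the edgeR interaction test). Use of the first site in place of the last was 0.861 and 0.841 in control and 0.864 and 0.888 in Qk cKO (ΔI -0.0230, FDR = 0.0545 by Fisher's exact test). Neither was called without control replicate 2 or without Qk cKO replicate 2, when ΔI of the 3-nt choice was -0.0199 and -0.0342 and that of the 24-nt choice -0.0135 and -0.0119.

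The 39-nt stretch that distinguishes hnRNP C2 from C1 arises from an alternative 5′ splice site (chr14:52081789-52081827) and was added for that isoform. One other gene has a copy of the junction without it.
Hnrnpc 39-nt stretch: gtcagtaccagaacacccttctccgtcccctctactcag
It was kept at 0.377 and 0.357 in control and at 0.366 and 0.386 in Qk cKO. The groups overlapped, and the event was not called (coverage 2617, FDR = 0.578, Fisher's exact test).

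**Figure D4:**
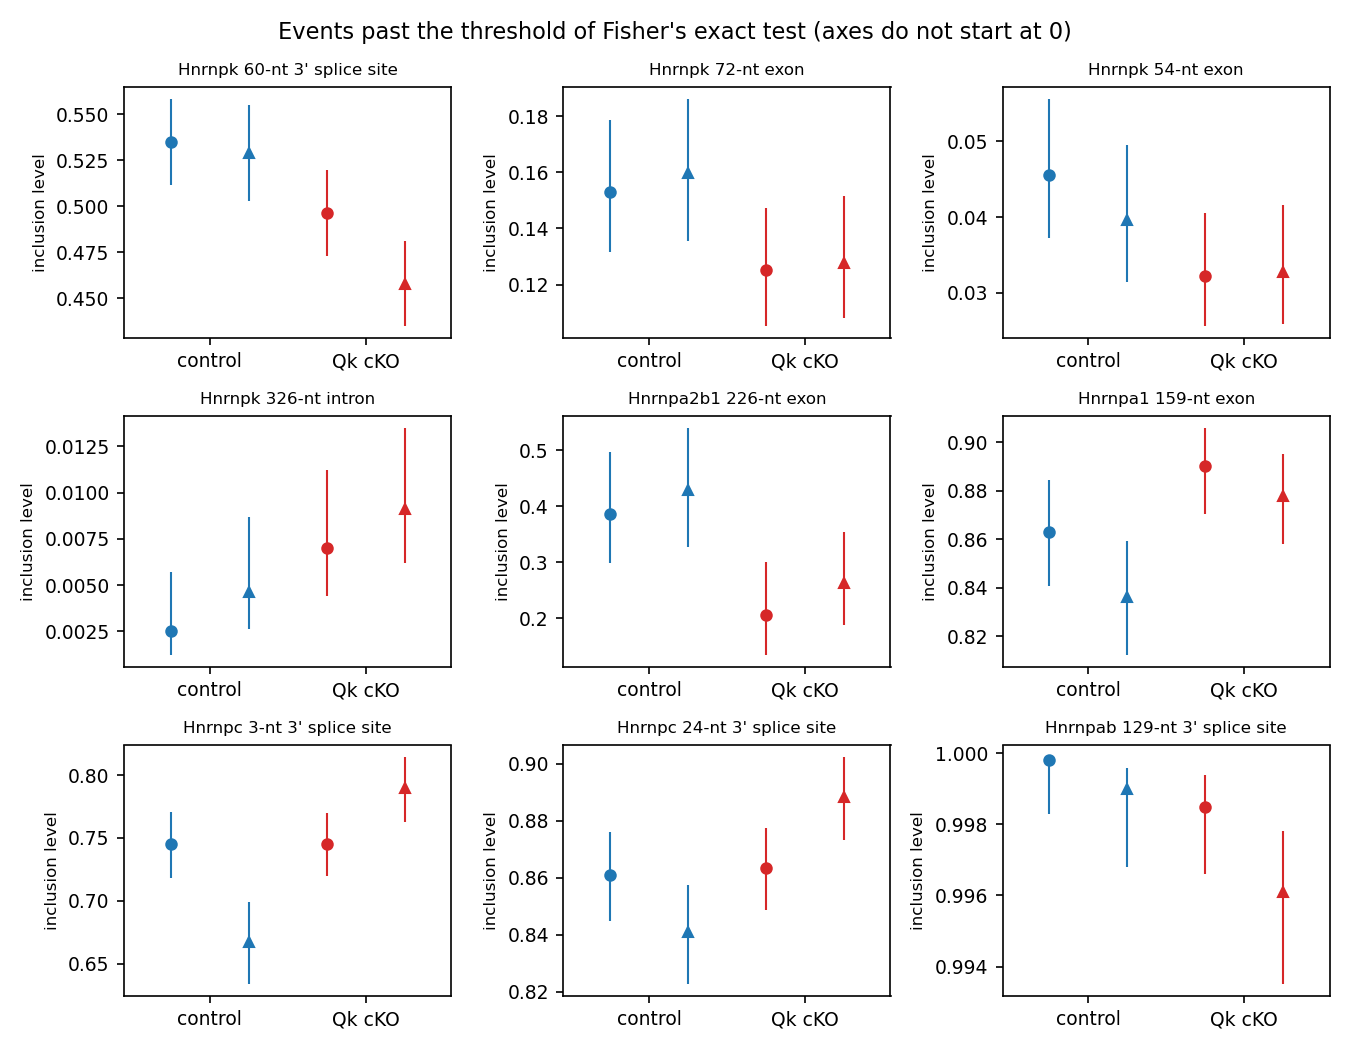
Inclusion level (y axes, scale differs by panel and does not start at 0) in every sample for the 9 distinct member events called by Fisher's exact test. Blue is control, red is Qk cKO, circles are replicate 1, triangles replicate 2, and lines are Wilson 95% intervals of the junction tags. The groups meet at 0.7453 in the 3-nt choice of Hnrnpc and are separate in the other 8 panels, most widely in the 226-nt exon of Hnrnpa2b1 (0.205 to 0.429).

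No event of Hnrnph1, Hnrnpl or Hnrnpm was called with all samples. For Hnrnph1, with 18 distinct events tested, the highest coverage (5033) was that of a 1494-nt intron (chr11:50379965-50381458, plus strand), retained at 0.204 and 0.185 in control and 0.182 and 0.196 in Qk cKO (FDR = 0.499, Fisher's exact test). The 139-nt coding exon after it (chr11:50381459-50381597), whose skipping shifts the reading frame and which was added for that reason, was included at 0.976 and 0.966 in control and 0.970 and 0.967 in Qk cKO (FDR = 0.536, Fisher's exact test).

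Hnrnpl and Hnrnpm each have a short coding intron, retained in coding transcripts at a length divisible by 3. In Hnrnpl it has 111 nt (chr7:28818533-28818643, plus strand) and was retained at 0.346 and 0.306 in the controls against 0.304 and 0.348 in Qk cKO. That of Hnrnpm has 117 nt (chr17:33666530-33666646, minus strand) and was retained at 0.466 and 0.486 in control and 0.515 and 0.475 in Qk cKO. The groups overlapped in both (FDR = 1 and FDR = 0.366, Fisher's exact test). Without Qk cKO replicate 2 the Hnrnpm intron was called (ΔI -0.0395, FDR = 0.0936, Fisher's exact test), and without Qk cKO replicate 1 its ΔI was 0.0007. They are shown for the splice site dinucleotides at their ends, gt and ag, within annotated coding sequence.
Hnrnpl 111-nt intron: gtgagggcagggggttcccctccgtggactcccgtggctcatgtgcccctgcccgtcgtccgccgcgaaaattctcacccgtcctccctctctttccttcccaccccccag
Hnrnpm 117-nt intron: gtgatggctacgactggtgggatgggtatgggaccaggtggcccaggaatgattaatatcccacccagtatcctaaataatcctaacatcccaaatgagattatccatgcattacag

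Hnrnpl also carries a 70-nt poison exon (chr7:28817335-28817404), by which hnRNP L limits its own amount. Its inclusion brings in a stop codon, in capitals, after 56 bases.
Hnrnpl poison exon to its stop codon, chr7:28817335-28817393: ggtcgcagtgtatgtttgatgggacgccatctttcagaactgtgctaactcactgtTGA
Inclusion from junction tags was 0.0151 (Wilson 95% interval 0.0090 to 0.0272) and 0.0086 (0.0039 to 0.0185) in control and 0.0294 (0.0201 to 0.0427) and 0.0265 (0.0174 to 0.0401) in Qk cKO. It was the higher in both Qk cKO samples. The event was not called on isoform tags, which also count tags inside the exon (FDR = 0.518, Fisher's exact test), but it was called on junction tags alone (FDR = 0.000339, Fisher's exact test). Those junction tags were 23.0 and 12.0 in control and 52 and 42.0 in Qk cKO for inclusion. On isoform tags the edgeR interaction test gave FDR = 0.796, and it was not run on junction tags. The Hnrnpl level did not pass the threshold (above). The exon was chosen after its values were seen.

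**Figure D5:**
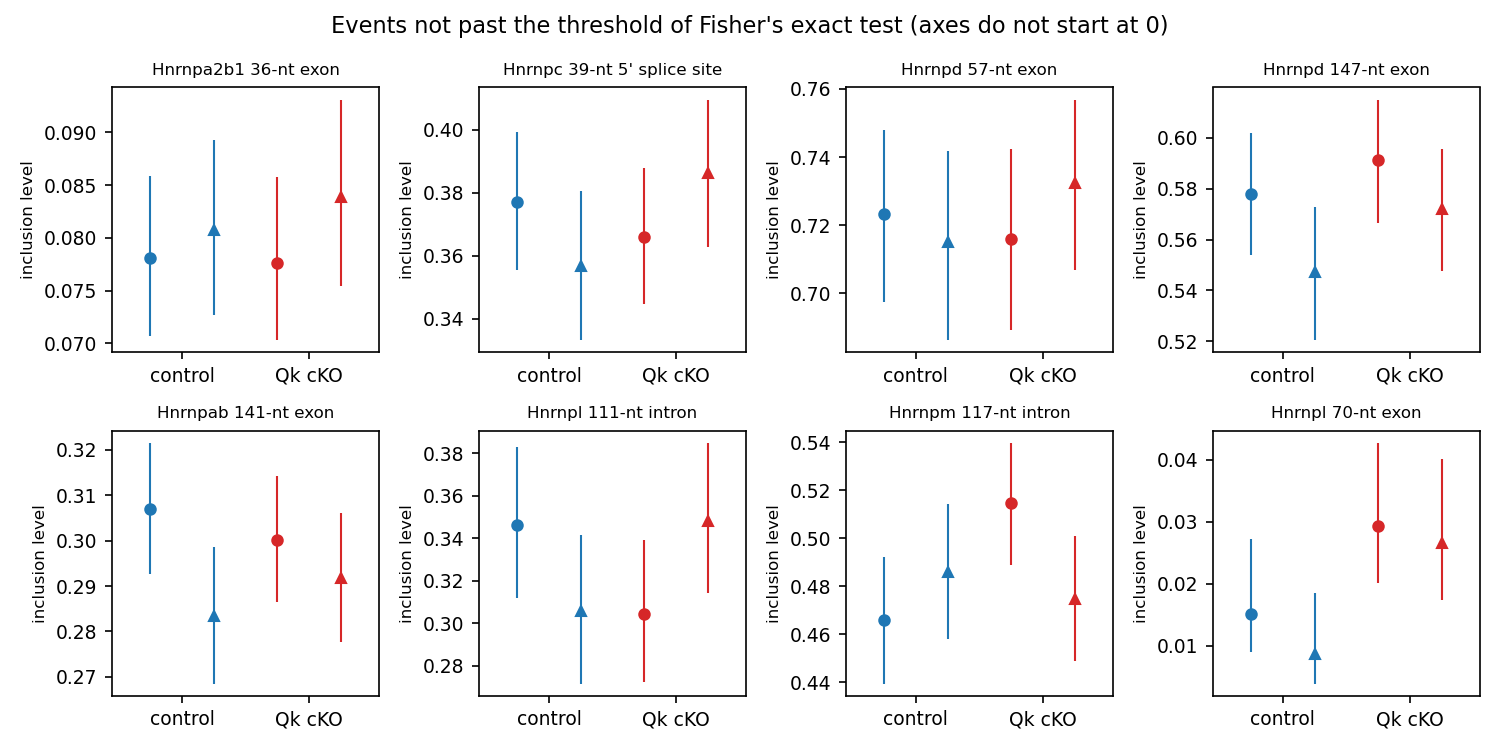
Inclusion level (y axes, scale differs by panel and does not start at 0) in every sample for 8 events of Hnrnpa2b1, Hnrnpc, Hnrnpd, Hnrnpab, Hnrnpl and Hnrnpm that did not pass the threshold. Blue is control, red is Qk cKO, circles are replicate 1, triangles replicate 2, and lines are Wilson 95% intervals of the junction tags. Groups overlap in all panels except the 70-nt exon of Hnrnpl, at 0.0086 to 0.0151 in control and 0.0265 to 0.0294 in Qk cKO.

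The sequence ACTAAC, the DNA form of the Qki core element, was in none of the 12 coding stretches of 3 to 147 nt given here, in either direction. The 3-nt stretch of Hnrnpc is too short to hold it and lies within the 24-nt one. Among annotated internal exons of the same lengths, at most 1.34% hold it, so few matches would be found in any such set. Not searched were the noncoding exons, the last exon of Hnrnpk, the poison exon of Hnrnpl and the unplaced stretch of Hnrnpab. Introns were not searched either, apart from the short coding ones of Hnrnpl and Hnrnpm.

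Among all distinct events tested, Fisher's exact test called 6.58%. Of the other hnRNP genes, 44 distinct events were tested and 1 was called. It was a cassette exon of Syncrip (hnRNP Q), included at 0.165 and 0.111 in control and at 0.0350 and 0.0345 in Qk cKO (ΔI 0.103, coverage 45, FDR = 0.0235 by Fisher's exact test, FDR = 0.372 by the edgeR interaction test). Both Qk cKO samples were lower than both controls. It was not called without Qk cKO replicate 2, and its coverage was below the stricter minimum of 50.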

How the data were processed

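Poly(A) RNA libraries (TruSeq, 150-nt paired reads) were aligned by the authors to mm10 with OLego and quantified with Quantas. The authors deposited estimated counts of tags per gene with RPKM values calculated from them, and estimated counts of tags per isoform and junction for 6 types of splicing event. The authors' strand setting and annotation are not given in the sources used here. How reads shared by near-identical genes were assigned is likewise not given. Between 8.41% and 12.1% of tag numbers were not whole, and tags were rounded for all tests. Depth was 37942046 to 42994832 tags per sample.

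Gene tags were compared with edgeR 4.0.16 (R 4.3.3; quasi-likelihood test, TMM scaling) over the 18834 genes with at least 1 tag. Events with a coverage of at least 20 (the smallest row or column sum of junction tags by group) were compared with Fisher's exact test on summed isoform tags, adjusted by Benjamini-Hochberg within each event type. Inclusion was calculated from junction tags per junction. Calls needed p below 0.01 and FDR below 0.1. Alternatives were DESeq2 1.42.0, edgeR's exact test, upper-quartile scaling, filterByExpr, the edgeR interaction test, junction tags only, coverage of 10 or 50, adjustment over all event types, the mean of replicate inclusion, a replicate block, and leaving out each sample. Counting 1 event per set of identical tags was added after the data were seen. Wilson intervals cover counting error only. The study describes the embryos as independent littermates, without saying which samples shared a litter. The p-values of the edgeR and DESeq2 tests measure only the spread between these samples. Those of Fisher's exact test on summed tags measure counting error and hold no spread between samples.

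The members and lists were chosen with earlier results of these data known. Named were all members, every called event, events with a ΔI of at least 0.1, the event with the highest coverage for members without either, and in the other lists the called genes or the smallest p in each direction; exons added for the isoform they make are said to be so. Positions and sequences come from GENCODE M21 (GRCm38, that is, mm10), counted from 1, and copies were searched with BLAST 2.17.0. Smg8, Smg9, Map2, Hnrnpdl, Hnrnpll and 1 globin gene were matched by an older symbol, and Hbb-bt was not matched. All tests were tested on simulated data. The sequence of 1 exon and the level of 1 marker gene are not reported here.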

Additional observations from a re-analysis of the deposited data

How the results depend on the processing

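No member and no other hnRNP gene was called under any alternative run. Among the NMD factors 1 (Smg1) was called by DESeq2 and 1 (Smg1) with the replicate block. DESeq2 called 81 genes in all. Over all genes the 110 calls became 57 with edgeR's exact test, 11 with filterByExpr, 192 with the replicate block and 0 to 428 without each sample in turn (0 without control replicate 2, 428 without Qk cKO replicate 1, 11 without control replicate 1, 68 without Qk cKO replicate 2). Whether the replicate numbers mark pairs is not stated, and the samples were not treated as paired. Deviations of same-numbered samples correlated at 0.303 over 12928 genes. Over 12442 autosomal genes the correlation was -0.0807, and over events it was -0.014. These values cannot show that no pairing exists. The sex of the embryos is not given in the labels, and its part was not tested.

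The 31 member events called became 9 with 1 event per set of identical tags, 0 with the edgeR interaction test (both countings), 30 with the replicate block, and 15 to 35 without each sample in turn (15 without Qk cKO replicate 2). Of the 9 distinct calls, 3 to 5 remained when a sample was left out, and none was kept in all 4 such fits (that of Hnrnpab had the coverage for a test in 1 of them). The 1 call among other hnRNP events became 2 on junction tags, 0 at a coverage of 50, 0 with the edgeR interaction test (both countings) and 0 to 3 without each sample. All 862 events called became 64 with the edgeR interaction test (64 with 1 event per set) and 488 to 722 without each sample; with the replicate block they were 739.

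No called ΔI turned its sign. Signs turned only in values that were not called with all samples, and except for 1 retained intron of Hnrnpl only when a sample was left out. The log2 fold changes without a sample ranged from -0.0237 to 0.0653 for Hnrnpa2b1, -0.0383 to 0.0940 for Hnrnpab, -0.0348 to 0.0987 for Hnrnpc, -0.0865 to 0.0583 for Hnrnpd, -0.0130 to 0.0940 for Hnrnpl and -0.0136 to 0.0531 for Hnrnpm. ΔI ranged from -0.0046 to 0.0017 for the 36-nt and -0.0023 to 0.0126 for the 120-nt exon of Hnrnpa2b1, -0.0027 to 0.0073 for the 139-nt exon and -0.0035 to 0.016 for the 1494-nt intron of Hnrnph1, -0.013 to 0.0037 for the 57-nt exon of Hnrnpd, -0.0128 to 0.0109 for the 141-nt exon of Hnrnpab, -0.0185 to 0.0022 for the 39-nt stretch of Hnrnpc, -0.0219 to 0.0221 for the 111-nt intron of Hnrnpl (-0.0003 with the mean of replicate inclusion) and -0.0395 (called, without Qk cKO replicate 2) to 0.0007 for the 117-nt intron of Hnrnpm. The Qk junction ratio in Qk cKO was 6.40% of that in control, and 5.90% to 6.92% without each sample. With 2 embryos a group, 95% intervals of the members' levels reached as far as 23.7%, which limits what could be detected.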
